A study of Homo sapiens with 24 samples.

Results

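The region described here is the stretch of the long arm of human chromosome 7 that holds MET, CAV1 and CAV2. Its members are the ChIP-seq peaks of 8 peak lists whose midpoint lies from 85 to 120 Mb on chromosome 7, in the GRCh37 build. There were 224 such peaks among 13347 in the 8 lists. The region was picked because resistant cells had more peaks there than parental cells, so that difference is described below and not tested. Where peaks or positions elsewhere are named as the comparison, those at 54 to 56 Mb of the same chromosome, around EGFR, are left out. Shares of a list and percentages of all positions or bins of the genome include them.

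The cells were HCC827, an established human lung adenocarcinoma line that depends on a mutant form of EGFR, the epidermal growth factor receptor. They were either parental and untreated, or resistant to the EGFR inhibitor osimertinib and grown in 1 µM of it. In each state the cells were wild-type or expressed METTL7A-MYC-tag-FLAG, a methyltransferase-like protein fused to both tags, and titles of the latter carry the letters OE. Chromatin of each kind was precipitated with isotype control IgG or, in separate samples, with anti-MYC-tag. The series holds 24 samples in 12 groups of 2, of which 16 samples in 8 groups entered the 8 lists, and 8 input samples were not analysed here. The promoter that drives the transgene, and whether the resistant or the METTL7A cells are 1 clone, is not given in the sources used here. The METTL7A cells are called METTL7A below.

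Each list joins the 2 replicates of a group, so no list has a replicate error of its own, and intervals below cover counting error only. The lists held 70 to 3165 peaks. Depth of the libraries is unknown from the files, and the 2 METTL7A IgG lists, of 70 and 96 peaks, were far shorter than the others. A peak's height is the −log10 p of the authors' peak caller in the lower of the 2 replicates. It ranks or filters peaks within a list and is not on a common scale across lists. A reproducible peak is one at a global irreproducible discovery rate (IDR) of 0.05 or less.

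MET encodes the receptor tyrosine kinase for hepatocyte growth factor, and extra copies of MET are a known route by which EGFR-mutant lung tumours escape EGFR inhibitors. CAV1 and CAV2, its neighbours, encode the caveolins that shape small pits of the plasma membrane. In ChIP-seq, an isotype IgG recognises no chosen protein, and peaks found with it show what a library recovers without a specific antibody. The MYC tag is a short stretch of human MYC, a transcription factor that binds with MAX at the E-box CACGTG. DNA copies of the region were not measured here.

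Sequences are shown for the starts of 5 genes where at least 2 lists had a peak at or joined to the start, since these positions recur in the data and differ in base composition. Each is the 250 bases before the gene's start on its plus strand, from RefSeq, build GRCh38.p14. Those coordinates are not the GRCh37 coordinates of the peaks. Capitals mark CG dinucleotides and the E-box CACGTG. In GRCh38.p14 the stretches are chr7:116524759-116525008 for CAV1, chr7:107660578-107660827 for SLC26A4, chr7:108569624-108569873 for DNAJB9, chr7:116210289-116210538 for TES and chr7:114921844-114922093 for MDFIC.
CAV1: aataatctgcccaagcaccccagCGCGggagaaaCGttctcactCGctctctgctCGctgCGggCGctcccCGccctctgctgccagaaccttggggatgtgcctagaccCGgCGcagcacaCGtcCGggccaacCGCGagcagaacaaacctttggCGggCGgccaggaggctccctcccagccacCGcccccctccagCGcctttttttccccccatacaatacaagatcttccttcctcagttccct
SLC26A4: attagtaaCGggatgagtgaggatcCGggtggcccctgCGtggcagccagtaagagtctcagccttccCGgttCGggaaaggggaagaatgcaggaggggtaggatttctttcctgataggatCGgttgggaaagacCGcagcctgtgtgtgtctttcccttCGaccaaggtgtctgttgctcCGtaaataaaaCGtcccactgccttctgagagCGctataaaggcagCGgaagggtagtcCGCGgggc
DNAJB9: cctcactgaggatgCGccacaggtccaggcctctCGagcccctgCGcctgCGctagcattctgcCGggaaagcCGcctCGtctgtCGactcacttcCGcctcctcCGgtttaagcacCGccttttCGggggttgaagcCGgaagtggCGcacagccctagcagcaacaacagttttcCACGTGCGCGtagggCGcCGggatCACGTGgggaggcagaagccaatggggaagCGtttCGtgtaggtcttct
TES: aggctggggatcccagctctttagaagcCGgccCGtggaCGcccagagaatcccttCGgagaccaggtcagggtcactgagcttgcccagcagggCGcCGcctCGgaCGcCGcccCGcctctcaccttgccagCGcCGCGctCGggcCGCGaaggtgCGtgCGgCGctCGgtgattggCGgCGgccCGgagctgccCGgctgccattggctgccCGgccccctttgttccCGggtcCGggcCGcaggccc
MDFIC: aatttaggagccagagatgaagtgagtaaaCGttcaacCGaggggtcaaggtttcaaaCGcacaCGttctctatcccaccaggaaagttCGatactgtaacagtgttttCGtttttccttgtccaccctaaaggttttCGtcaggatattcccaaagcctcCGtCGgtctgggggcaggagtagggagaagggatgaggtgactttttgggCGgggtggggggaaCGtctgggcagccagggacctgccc

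The upstream stretch of TES, a focal-adhesion protein gene, is the most CG-rich of the 5, with 28 CG dinucleotides and a GC content of 73.6%. DNAJB9, an endoplasmic reticulum chaperone gene, has 22 CG dinucleotides and is the only one of the 5 with CACGTG, which it holds at 2 places. CAV1 has 18 CG dinucleotides, SLC26A4 has 14 and MDFIC has 11. MDFIC, a regulator of transcription factors, has the lowest GC content of the 5, at 52.8%. These starts therefore run from moderate to high CG content.

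Of the located genes of the region with a usable start, 54 had a peak there. Their median GC content was 68.3% in the 300 bases around the start (250 before and 50 after). FOXP2 is among the 54, but the stretch measured for it lies at another start than the one near its peaks. The 99 without a peak at the start had 64%. All 27305 promoters of the table had 58.3%. CACGTG, which reads the same on both strands, was in 7 of the 54 (13.0%), in 12 of the 99 (12.1%) and in 7.43% of all promoters. Genes of the region with and without a peak at the start thus held the E-box at close shares, and a match describes letters only.

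Peaks of the region made up a larger share of the resistant list than of the parental list in all 4 pairs of lists. In wild-type IgG, 62 of 2529 resistant peaks (2.45%, exact 95% interval 1.88 to 3.13) and 11 of 1444 parental peaks (0.762%, 0.381 to 1.36) lay there. In wild-type MYC-tag, the counts were 68 of 2767 (2.46%, 1.91 to 3.11) and 3 of 1005 (0.299%, 0.0616 to 0.870). In METTL7A MYC-tag, they were 65 of 3165 (2.05%, 1.59 to 2.61) and 9 of 2271 (0.396%, 0.181 to 0.751). These 3 pairs hold the long lists, and the intervals show only the counting error of each share. In METTL7A IgG, 5 of 96 resistant peaks (5.21%, 1.71 to 11.7) and 1 of 70 parental peaks (1.43%, 0.0362 to 7.70) lay there, so both shares rest on few peaks.

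**Figure D1:**
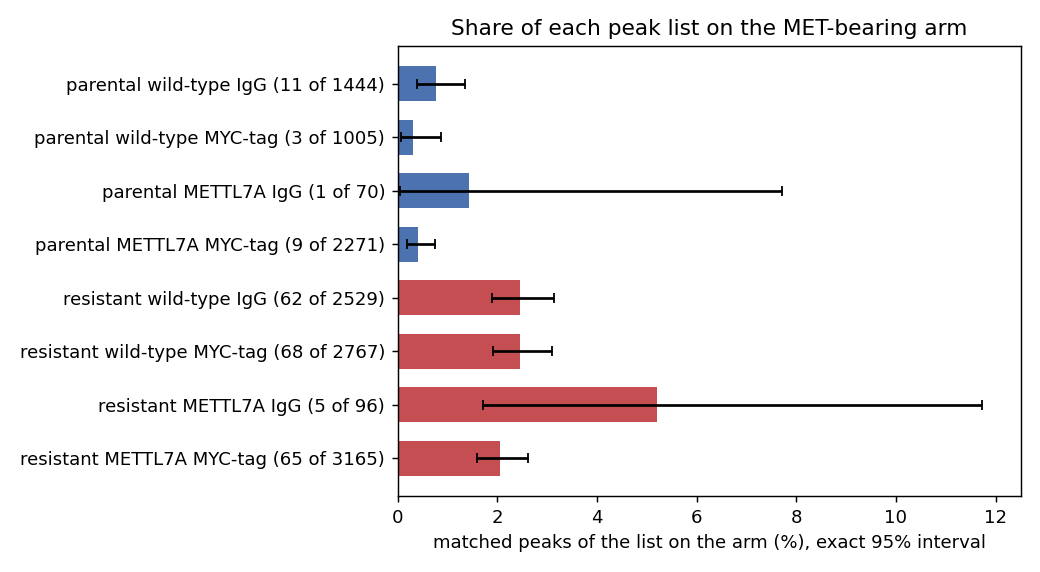
Percent of each list's matched peaks that lie at 85 to 120 Mb of chromosome 7 (horizontal axis), for the 8 lists (vertical axis; blue, parental; red, resistant), with exact 95% binomial intervals as bars. The resistant lists sit between 2.05% and 5.21%, the parental lists between 0.299% and 1.43%, and the 2 METTL7A IgG lists have the widest intervals.

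The ratio of the resistant to the parental share was 3.22 (exact 95% interval 1.68 to 6.78) in wild-type IgG, 8.23 (2.70 to 40.9) in wild-type MYC-tag, 5.18 (2.57 to 11.8) in METTL7A MYC-tag and 3.65 (0.408 to 172) in METTL7A IgG. The resistant share was the larger in every pair, with IgG as well as with MYC-tag. Since the region was picked on this contrast, the intervals are no test of it. On the rest of chromosome 7, outside the region and outside 54 to 56 Mb, the same ratio was 0.675 (0.508 to 0.900), 0.605 (0.439 to 0.841), 0.624 (0.492 to 0.792) and 1.09 (0.13 to 13.1) in the same order. The stretches next to 54 to 56 Mb were not left out of it. In the long lists most of these other peaks lay outside 60 to 155 Mb, so the ratio is no background for the whole chromosome. The resistant lists were also 1.37 to 2.75 times as long as their parental partners, and shares already divide by that length.

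Resistant lists had 200 of the 224 peaks, and parental lists 24. The resistant count was 5.64 times the parental one in wild-type IgG and 22.7 times in wild-type MYC-tag. It was 7.22 times in METTL7A MYC-tag and 5 times in METTL7A IgG. The whole lists were 1.75, 2.75, 1.39 and 1.37 times as long, in the same order. Per megabase, the resistant counts came to 1.77 peaks in wild-type IgG, 1.94 in wild-type MYC-tag, 1.86 in METTL7A MYC-tag and 0.143 in METTL7A IgG. The parental densities, in the same order, were 0.314, 0.0857, 0.257 and 0.0286 peaks per megabase. The 3 longer resistant lists thus had nearly equal densities along the region, while the longer parental lists had lower ones. These densities are not divided by list length.

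With only peaks of height 5 or more, 30 of 989 resistant wild-type IgG peaks lay in the region (3.03%) and 1 of 252 parental ones (0.397%). In METTL7A MYC-tag the counts were 28 of 1246 (2.25%) and 4 of 840 (0.476%). Resistant wild-type MYC-tag had 27 of 547 (4.94%), and the parental list had 0 of 242, for which the exact interval reaches 1.51%. The shares of these higher peaks stood in the same order between resistant and parental lists as those of all peaks. No METTL7A IgG peak of the region was that high.

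Along the region, 32 of the 35 bins of 1 Mb had a peak in a resistant list and 16 had one in a parental list. Resistant peaks outnumbered parental peaks in 30 bins. These are raw counts from resistant lists 1.37 to 2.75 times as long as their parental partners, with no genome share beside them. Because the region was picked on this contrast, nothing is read from the difference. Only the bin at 92 to 93 Mb, which holds CDK6, a kinase gene of the cell cycle, had no peak in any list. No parental total over the 4 lists exceeded 3 peaks in a bin. Resistant peaks were thus spread over nearly the whole region, but not evenly.

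**Figure D2:**
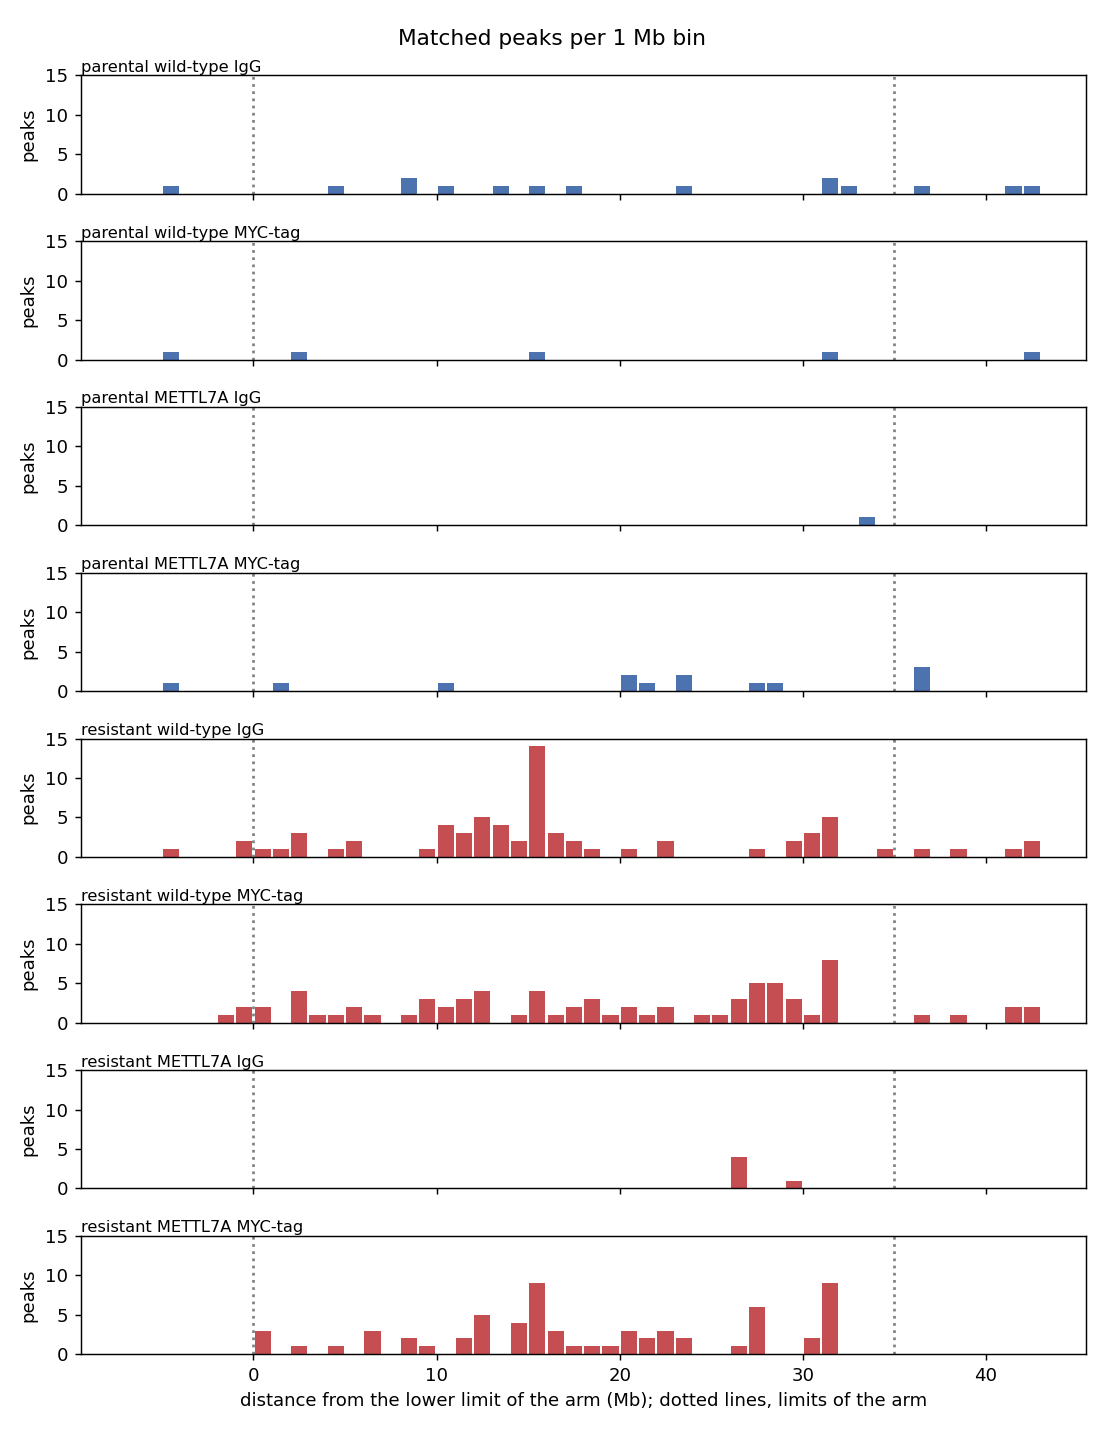
Matched peaks per 1 Mb bin (vertical axis) against distance from the 85 Mb limit in Mb (horizontal axis), 1 panel per list (blue, parental; red, resistant); dotted lines mark the limits of the region. Resistant wild-type IgG reaches 14 peaks in the bin at 100 to 101 Mb, the MYC-tag lists reach 8 and 9 at 116 to 117 Mb, and the resistant counts drop after that bin.

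The bin with most resistant peaks was 100 to 101 Mb, with 27. Of these, 14 were in wild-type IgG, 4 in wild-type MYC-tag, 9 in METTL7A MYC-tag and 0 in METTL7A IgG, against 2 parental peaks. It holds ACHE, the acetylcholinesterase gene. The next was 116 to 117 Mb, the bin of MET, CAV1, CAV2 and ST7, with 22 resistant peaks (5, 8, 9 and 0 in the same order) and 3 parental peaks. The bins at 97 to 98 Mb and 112 to 113 Mb followed, with 14 and 12 resistant peaks and 0 and 1 parental peaks.

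The 3 longer resistant lists differed in where along the region their peaks lay. Of resistant wild-type IgG peaks, 38 of 62 (61.3%, exact 95% interval 48.1 to 73.4) fell at 95 to 105 Mb. The counts there were 21 of 68 (30.9%, 20.2 to 43.3) in wild-type MYC-tag and 26 of 65 (40%, 28.0 to 52.9) in METTL7A MYC-tag. At 110 to 115 Mb, wild-type IgG had 3 of 62 (4.84%, 1.01 to 13.5), wild-type MYC-tag 17 of 68 (25%, 15.3 to 37.0) and METTL7A MYC-tag 7 of 65 (10.8%, 4.44 to 20.9). Wild-type IgG peaks thus lay mostly in the first stretch, and wild-type MYC-tag peaks were more evenly divided. These 2 stretches were chosen after the values were seen, so no test is given.

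A bin was called higher in resistant cells when it held at least 3 resistant peaks and its share of the list was at least 2 times the parental share. In wild-type IgG, 8 of the 25 bins of the region with a peak were called, beside 8.59% of all such bins of the genome. In wild-type MYC-tag 9 of 28 were called (genome 10.5%), in METTL7A MYC-tag 9 of 25 (genome 10.1%) and in METTL7A IgG 1 of 3 (genome 3.17%). Since the region was picked on this contrast, nothing is read from these shares.

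Called in at least 2 of the 4 pairs were 7 bins, those starting at 96, 97, 100, 101, 111, 112 and 116 Mb, beside 2.79% of the genome's bins. They were all the bins of chromosome 7 that met this rule outside 54 to 56 Mb. The bin at 97 Mb was called in wild-type IgG, wild-type MYC-tag and METTL7A MYC-tag. By this rule the outer limits of the called bins were 96 and 117 Mb, but the bins between were not all called. None from 102 to 111 Mb was called in 2 pairs. The bin at 111 Mb was called in wild-type MYC-tag and in the short METTL7A IgG pair. The lower limit was loose, at 94.5 Mb with bins shifted by 0.5 Mb and at 90 Mb with bins of 2 Mb, and the upper limit was 113 Mb when a share of at least 3 times the parental one was asked for.

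In windows of 5 Mb the resistant level over the lists together was above the parental level in each window from 85 to 120 Mb. This includes windows below the first bin called in at least 2 pairs. The wild-type IgG pair went the other way at 90 to 95 Mb, with 1.19 resistant and 1.39 parental per 1000. METTL7A IgG did so at 115 to 120 Mb, with 0 and 14.3, the latter from 1 peak. At 80 to 85 Mb the levels were close, 0.701 resistant and 0.626 parental per 1000 peaks of the lists together. Per 1000 peaks of the resistant lists together, the level was 0.584 at 75 to 80 Mb and 0.701 at 80 to 85 Mb. It was 2.22 at 85 to 90 Mb, 1.87 at 90 to 95 Mb, 4.56 at 95 to 100 Mb and 5.38 at 100 to 105 Mb. Over the lists together, the resistant level was thus highest at 100 to 105 Mb. It was 2.22 at 105 to 110 Mb, 3.74 at 110 to 115 Mb, 3.39 at 115 to 120 Mb and 0.467 in the 5 Mb above that. Single lists differed: resistant wild-type IgG peaked at 100 to 105 Mb (7.91 per 1000), METTL7A MYC-tag there as well (4.74), and wild-type MYC-tag at 110 to 115 Mb (6.14, against 3.98 at 100 to 105 Mb). All 5 peaks of METTL7A IgG lay at 110 to 115 Mb. Parental lists together stayed between 0.418 and 1.25 per 1000 peaks in all these windows, with 0.626 at 85 to 90 Mb and 1.04 at 115 to 120 Mb.

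At the upper edge, resistant lists had 51 peaks at 112 to 117 Mb and 3 at 117 to 122 Mb. Parental lists had 5 and 6. The last resistant peak of the dense stretch, chr7:116962978-116963482, lay at the start of WNT2, a Wnt ligand gene named here for its place, in wild-type MYC-tag (height 3.27). The next lay at the start of KCND2, a potassium channel gene named here after its value was seen, at chr7:119913201-119913548 in wild-type IgG (4.91). The empty interval between them was 2.95 Mb, the longest without a resistant peak in the region and the 5 Mb on either side. It held 2 parental peaks, and it includes CFTR, the chloride channel gene, which had no peak in any list.

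At the lower edge, resistant lists had 2 peaks at 78 to 84 Mb and 23 at 84 to 90 Mb. Parental lists had 3 in each of these stretches. The bin at 84 to 85 Mb, just outside the chosen limit, had 4 resistant and 0 parental peaks. The nearest peak outside was chr7:84814039-84816284 in resistant wild-type MYC-tag (height 4.15), and the nearest inside was chr7:85052526-85053865 in resistant METTL7A MYC-tag (4.49). The denser stretch thus took in the 1 Mb below the limit that defines the region.

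Peaks that overlapped by at least 1 bp were joined into 186 positions. Of these, 163 had peaks in resistant lists alone (60.8% of all positions of the genome did), 16 in parental lists alone and 7 in both. A position in at least 2 lists occurred 33 times (17.7% of the region's positions, 13% of all 11138 positions), and one in at least 3 lists 4 times (2.15%, 3.2% of all positions). Outside the region and the EGFR stretch the shares were 11.6% and 2.16% of 10723 positions, so the share in at least 3 lists was close to that elsewhere. Most positions were thus seen in 1 list. Of the 33, 26 had peaks in at least 2 resistant lists and no parental list, beside 3.09% of all positions, and 0 had peaks in at least 2 parental lists and no resistant list, beside 1.09%. The region was picked on this contrast, so nothing is read from these counts.

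**Figure D3:**
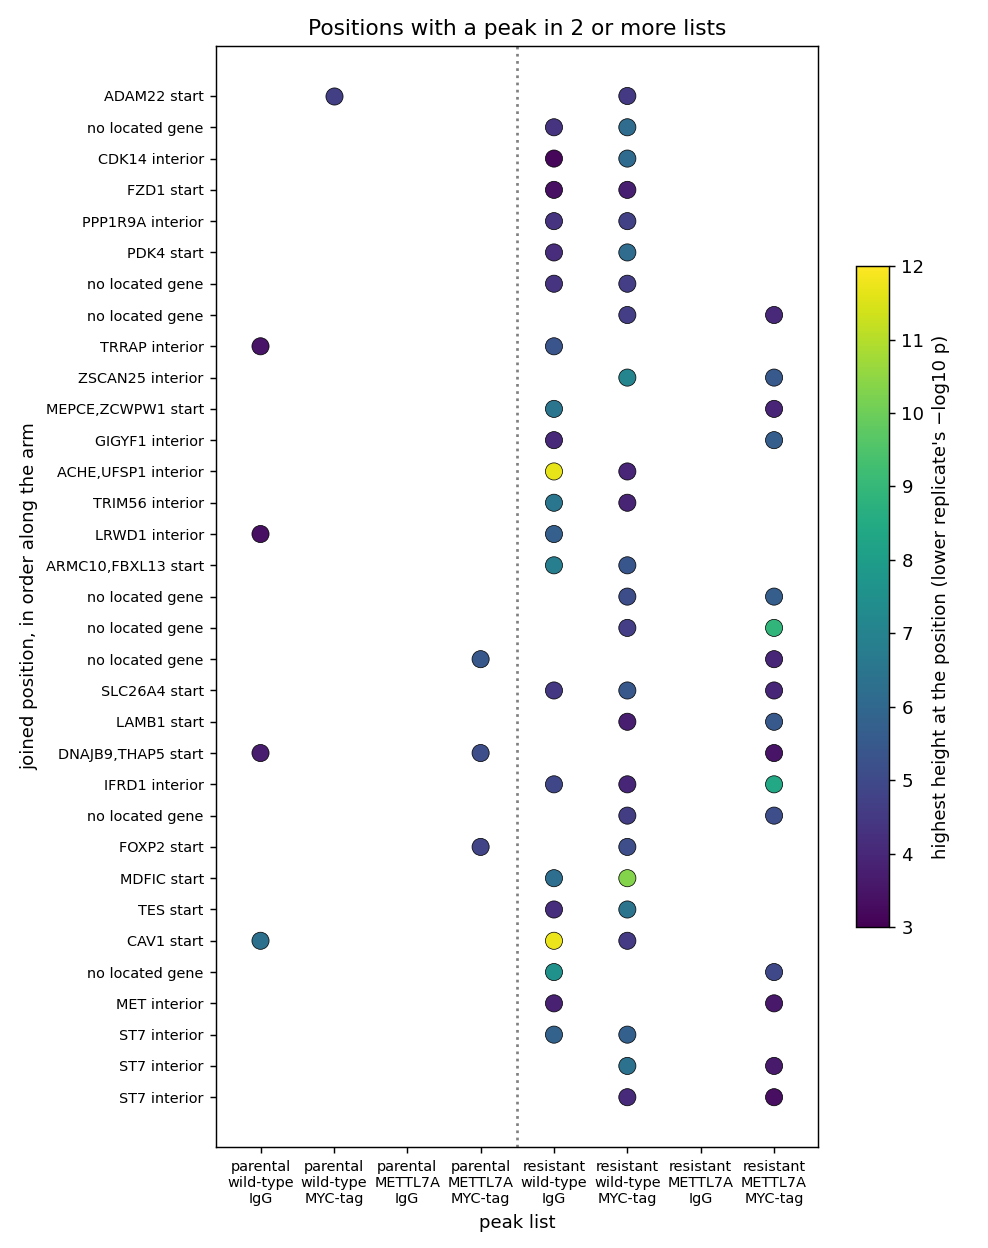
The 33 positions with a peak in 2 or more lists, in order along the chromosome (vertical axis, named by the gene at the position where one was located), against the 8 lists (horizontal axis; the dotted line separates parental from resistant); colour gives the highest height at the position. The points crowd into 3 resistant columns, both METTL7A IgG columns are empty, and 7 rows also have a parental point.

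The 3 longer resistant lists shared larger parts of their positions with each other in the region than elsewhere, and the short METTL7A IgG list did not. Wild-type IgG and wild-type MYC-tag shared 15 positions, 24.2% of the first and 22.4% of the second. Elsewhere they shared 267, or 11.4% and 10.5%. Wild-type MYC-tag and METTL7A MYC-tag shared 10 (14.9% and 15.4%), against 155 elsewhere (6.07% and 5.29%). Wild-type IgG and METTL7A MYC-tag shared 6 (9.68% and 9.23%), against 108 elsewhere (4.60% and 3.68%). Resistant METTL7A IgG shared 0 of its 5 positions in the region with the other resistant lists. Of its 70 positions elsewhere it shared 3 (4.29%) with wild-type IgG, 3 with wild-type MYC-tag and 7 (10%) with METTL7A MYC-tag. Lists share cells, and shares of positions in common also depend on how densely peaks lie, so no test is given.

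Of the 4 positions in at least 3 lists, 2 had resistant peaks alone. At the start of SLC26A4, the gene of the anion exchanger pendrin, chr7:107301115-107302581 had peaks in resistant wild-type IgG (height 4.44), wild-type MYC-tag (5.44) and METTL7A MYC-tag (3.98). Inside the located span of IFRD1, an interferon-related regulator gene, chr7:112090127-112091543 had heights of 4.91, 3.98 and 8.40 in the same lists. It lay at no counted start, but other starts of IFRD1 were not looked at. The METTL7A MYC-tag peak in IFRD1 was also reproducible, at a global IDR of 0.0267. These are the positions found in each of the 3 longer resistant lists.

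The other 2 included parental lists. The shared start of THAP5 and DNAJB9, at chr7:108209639-108210886, had peaks in parental wild-type IgG (3.70), parental METTL7A MYC-tag (5.14) and resistant METTL7A MYC-tag (3.48). It was the only position of the region with peaks in 2 parental lists. The start of CAV1, at chr7:116164705-116167033, had a peak of 6.29 in parental wild-type IgG, just inside the gene, 11.7 in resistant wild-type IgG and 4.57 in resistant wild-type MYC-tag. CAV1 thus had peaks in both states with IgG.

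The remaining 5 positions found in both states had 1 parental and 1 resistant peak each. They lay at the start of ADAM22 (parental wild-type MYC-tag 4.67, resistant wild-type MYC-tag 4.52), in TRRAP (parental wild-type IgG 3.48, resistant wild-type IgG 5.35) and in LRWD1 (3.37 and 5.68 in the same lists). TRRAP encodes a large adaptor of histone acetyltransferase complexes that MYC recruits, and LRWD1 a partner of the origin recognition complex. Within 1 kb of the upstream end of the located span of FOXP2, a transcription factor gene of speech and language, lay another. Its heights were 4.83 in parental METTL7A MYC-tag and 5.12 in resistant wild-type MYC-tag. The promoter stretch measured for FOXP2 lies at a different start of the gene, away from these peaks. The fifth, chr7:105834001-105834941, lay in no located gene. ADAM22 and LRWD1 are named here after their values were seen.

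Heights are ranked here within each list, since lists share no common scale. The region's top peak in resistant wild-type IgG lay in SH2B2, an adaptor gene of receptor kinase signalling, at chr7:101961716-101962270, with 15.6 in 1 replicate and 14.2 in the other. The next was at the start of TMEM130 (chr7:98467056-98467850, 12.3), followed by CAV1 (11.7) and UFSP1 (chr7:100486292-100487301, 11.7). NPTX2, a neuronal pentraxin gene, had 11.2 at its start, and RELN, the gene of the matrix protein reelin, 10.9 at its start. ACHE had 9.72 at its start. These are the 7 highest peaks of that list in the region, and none of the 7 passed the global IDR threshold.

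**Figure D4:**
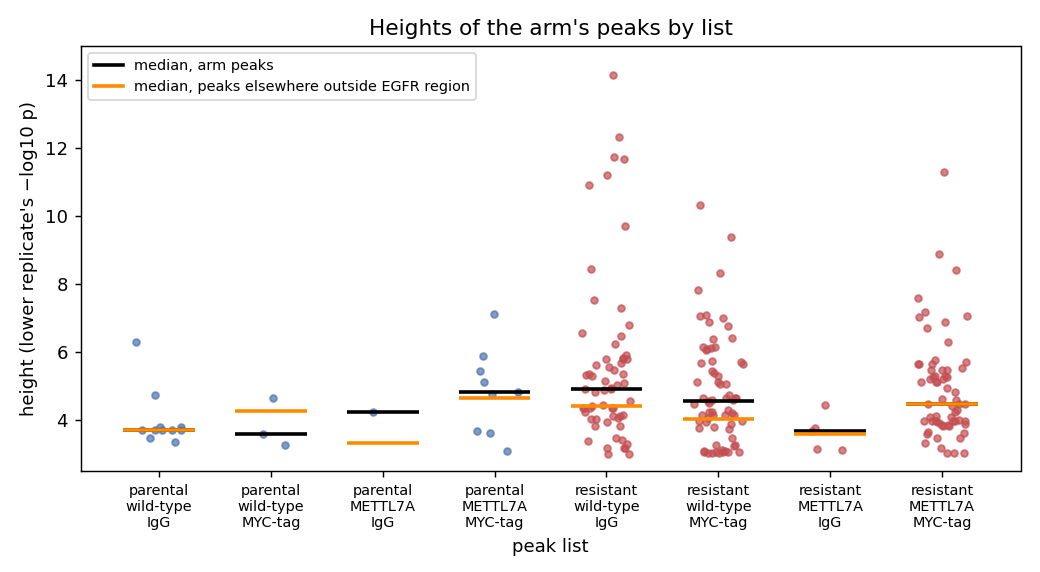
Height of each peak of the region (vertical axis, lower replicate's −log10 p) by list (horizontal axis; blue, parental; red, resistant; sideways spread is for display), with the median of the region's peaks (black) and of peaks elsewhere outside the EGFR region (orange). Resistant wild-type IgG reaches 14.2, its 7 highest peaks stand above 9, and heights are to be read within a list, not across lists.

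In resistant wild-type MYC-tag the highest peak of the region was at the start of MDFIC, at chr7:114561864-114562711, with 12.7 and 10.3 in the 2 replicates and a global IDR of 0.0320. Resistant wild-type IgG had a peak of 6.23 at the same place. The second of that list, chr7:112442352-112443995 (9.39), lay in no located gene. So did the highest of resistant METTL7A MYC-tag, chr7:112971420-112972238 (11.3), and both were reproducible.

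Reproducible peaks were few in the region. Resistant wild-type MYC-tag had 2 reproducible peaks there (2.28% of its whole list was reproducible), and resistant METTL7A MYC-tag had 3 (3.29% of its list). The third of the latter was chr7:104624227-104624988, of height 8.88, in no located gene. The only parental one was chr7:118989997-118990602, of height 4.24, in METTL7A IgG, a list of which 75.7% was reproducible. The other 5 lists had 0 in the region. Of those lists as a whole, 0.791% of resistant wild-type IgG, 13.5% of resistant METTL7A IgG, 2.15% of parental wild-type IgG, 2.59% of parental wild-type MYC-tag and 6.38% of parental METTL7A MYC-tag was reproducible. Of the 200 resistant peaks of the region, 5 were thus reproducible.

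MET itself had 5 peaks, all in resistant lists, within 17.9 kb of its interior. Resistant METTL7A MYC-tag had peaks of 7.04 at chr7:116363853-116364626 and 3.59 at chr7:116366607-116367904. Resistant wild-type IgG had 3.82 at chr7:116366402-116367049 and 4.43 at chr7:116370075-116370430. The 3.59 and 3.82 peaks overlap each other, across different antibodies and genotypes. Resistant wild-type MYC-tag had 5.69 at chr7:116381326-116381714. None of the 5 was reproducible, and none lay at the start of MET.

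**Figure D5:**
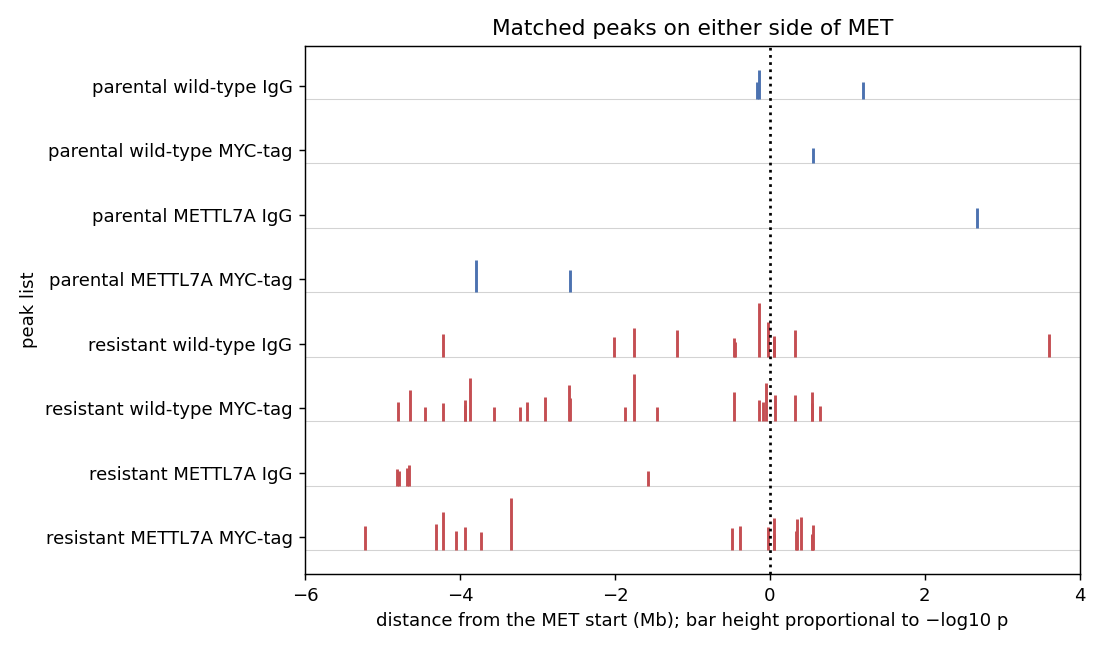
Matched peaks from 6 Mb below to 4 Mb above the start of MET (horizontal axis, Mb), 1 row per list (blue, parental; red, resistant), with bar height proportional to −log10 p. Peaks of the 4 resistant lists end before 1 Mb above MET apart from 1 wild-type IgG peak, the one at KCND2.

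CAV2, next to CAV1, had a single peak at its start, in parental wild-type IgG (chr7:116139543-116140401, 3.70), and none in a resistant list. On the other side of MET, ST7, a candidate tumour suppressor gene, had 11 peaks over 231 kb, more than any other named gene. Resistant METTL7A MYC-tag had 6 of them, resistant wild-type MYC-tag 3, resistant wild-type IgG 1 and parental wild-type MYC-tag 1. Those of METTL7A MYC-tag reached 7.18, and the parental one was 3.28. At 3 positions in ST7, 2 resistant lists overlapped.

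In the list of 40 known genes of the region, 21 had a peak in at least 1 list and 19 had none. Of the 21, 16 had resistant peaks alone, 4 had both and CAV2 had a parental peak alone. Peaks in at least 2 lists were found in 12 genes: TRRAP, CUX1, SLC26A4, LAMB1, DOCK4, IFRD1, FOXP2, MDFIC, TES, CAV1, MET and ST7. The list holds genes of varied roles and lengths and was chosen with earlier results of these data known. Over all 188 located genes, 84 had a peak and 36 had peaks in at least 2 lists. Of the 84, 67 had resistant peaks alone and 8 had parental peaks alone. As the region was picked on this contrast, nothing is read from the counts of listed or of all genes.

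DOCK4, a guanine nucleotide exchange factor gene of cell migration, held 4 of the 5 peaks that resistant METTL7A IgG had in the region. They had heights of 3.13 to 4.44 and lay within 152 kb. Resistant wild-type MYC-tag had 2 further peaks there, of 4.24 and 6.88, which overlapped none of the 4. The share of the METTL7A IgG list in the region therefore rests almost wholly on 1 gene.

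TES had heights of 4.17 in resistant wild-type IgG and 6.41 in resistant wild-type MYC-tag at its start (chr7:115850335-115851091), and a second IgG peak of 3.17 inside the gene. LAMB1, a laminin chain gene, had 5.49 in resistant METTL7A MYC-tag and 3.76 in resistant wild-type MYC-tag, in overlapping peaks of which the wild-type one reaches its start. CUX1, a homeobox transcription factor gene, had a peak of 7.07 at its start in resistant wild-type MYC-tag and one of 5.64 in its interior in resistant wild-type IgG. In that IgG peak the other replicate had 26.6, so the replicates differed widely. FOXP2 had a further peak of 4.35 in its interior in resistant wild-type IgG.

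The 19 genes of the list with no peak in any list included ABCB1 and ABCB4, drug and lipid transporter genes, and CDK6. They also included the replication gene MCM7, the ephrin receptor gene EPHB4, the chromatin gene KMT2E, the kinase gene PIK3CG, and CAPZA2 and CFTR on the far side of MET. An absent peak says only that none was matched in both replicates at the depth of these libraries.

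PDK4, a mitochondrial kinase gene, had 4.13 in resistant wild-type IgG and 6.16 in resistant wild-type MYC-tag at its start (chr7:95225334-95226354). The shared start of ARMC10 and FBXL13 had 6.81 and 5.40 in the same lists (chr7:102715074-102716040). The shared start of MEPCE and ZCWPW1 had 6.49 in resistant wild-type IgG and 3.93 in resistant METTL7A MYC-tag. These 3 positions, named after their values were seen, had no parental peak.

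Gene starts were counted as the start of a located gene with 1 kb on either side. Of the 224 peaks, 61 lay at a counted start (27.2%), 86 inside a gene but at no counted start, and 77 outside located genes. Only 153 of the 188 located genes had a usable start, with a single start for each. Peaks at other starts of these genes would fall among the 86 or the 77. Resistant wild-type IgG had 23 of 62 at a start (37.1%, exact 95% interval 25.2 to 50.3), resistant wild-type MYC-tag 18 of 68 (26.5%, 16.5 to 38.6) and resistant METTL7A MYC-tag 10 of 65 (15.4%, 7.63 to 26.5). The intervals of neighbours in that order overlap. The gene table was compiled after the peak positions were seen and is not complete, so these shares measure no enrichment.

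The antibody and the genotype were not used to pick the region, and their differences in share were tested over the 4 pairs of lists by an exact two-sided sign-flip permutation test. The share was on average 1.30% with MYC-tag and 2.46% with IgG, a MYC-tag minus IgG difference of -1.16 percentage points (SD 1.40, n = 4 pairs, lower in 3 of 4), with exact permutation p = 0.25 and an adjusted p of 0.75 over 4 tests. METTL7A lists exceeded wild-type lists by 0.779 points (SD 1.39, n = 4 pairs, higher in 3 of 4), with exact permutation p = 0.375 and adjusted p = 0.75. With 4 pairs the smallest p is that of 2 among 16 sign patterns, above the 0.05 level, so neither difference could have passed. Without the 2 short METTL7A IgG lists the antibody difference was -0.229 points and the genotype difference -0.153 points.

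Between the long lists of resistant wild-type cells, the region's share was 0.00597 points higher with MYC-tag than with IgG (95% Newcombe interval -0.846 to 0.845). Between the resistant MYC-tag lists METTL7A minus wild-type was -0.404 points (-1.19 to 0.353). In the parental MYC-tag lists METTL7A minus wild-type was 0.0978 points (-0.507 to 0.504). Parental wild-type MYC-tag minus IgG was -0.463 points (-1.09 to 0.203). All 4 of these intervals include 0. For resistant METTL7A cells, MYC-tag minus IgG was -3.15 points (-9.58 to -0.140), an interval that rests on the 5 IgG peaks, 4 of them in DOCK4. For parental METTL7A cells it was -1.03 points (-7.26 to 0.196), with 1 IgG peak in the region. All these intervals give the counting error of peaks within lists and are no test of antibody or genotype.

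Heights in the region were compared with those elsewhere, and the difference did not pass its test. Over the 7 lists with at least 3 peaks in the region, the median height was on average 0.0915 above that of other peaks of the same list (SD 0.412, n = 7, higher in 4, lower in 1 and equal in 2; exact two-sided sign-flip permutation p = 0.562, adjusted p = 0.75). The resistant medians were 4.93 against 4.41 in wild-type IgG, 4.58 against 4.03 in wild-type MYC-tag, 4.49 against 4.49 in METTL7A MYC-tag and 3.69 against 3.61 in METTL7A IgG. Both wild-type resistant lists thus had slightly higher peaks in the region. Median width differed by -2 bp (SD 84.9, n = 7, wider in 5 of 7; exact permutation p = 0.953, adjusted p = 0.953).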

How the data were processed

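ChIP-seq peak lists of 8 groups of HCC827 cells were used, with 2 samples joined in each list. Per the labels' protocols, samples of a group are biological replicates, chromatin came from a ChIP-IT Express kit and was sheared by sonication. Per the submitters' processing notes, tools included MACS2 2.2.7.1, Bowtie2 2.4.2, bedtools 2.30, SAMtools 1.16, deepTools 3.5.1, Trimmomatic and FastQC, and the build was GRCh37. Which control served peak calling, and any duplicate or blacklist filter, is not given in the sources used here. The authors deposited lists of 20 columns: a scaled IDR score, −log10 p of the peak caller for each replicate and −log10 of the global IDR. The score was not used in any comparison. All deposited peaks of a list are called matched, and the lowest height of any list was 3.00. Lists hold no read totals, so depth is unknown, and peak numbers rise with depth and enrichment.

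Shares of lists carry exact (Clopper-Pearson) 95% intervals, ratios of shares exact conditional intervals and differences Newcombe intervals. Neighbouring peaks are not independent. The antibody, genotype, height and width comparisons used exact two-sided sign-flip permutation tests over lists or pairs of lists, adjusted together by the Benjamini-Hochberg method, at a level of 0.05. These p-values compare lists and do not measure the spread between cultures. The bin rule and the joining of positions were tested on simulated data, and the permutation test on fixed values. The interval methods were not tested in this way. Alternatives were a height of 5 or more, a global IDR of 0.05 or less, other denominators, windows, bins and overlaps, and leaving out lists. Python 3.11.15, pandas 2.3.3, SciPy 1.17.1, statsmodels 0.14.6 and matplotlib 3.10.9 were used.

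No GRCh37 annotation was used here. Genes were placed from a table of 192 gene spans in GRCh37, compiled from general knowledge after the peak positions were seen. Of these, 190 matched a RefSeq symbol and 188 were kept, because their start or end kept its spacing to neighbouring genes within 2 kb of that in RefSeq GRCh38.p14. Of the 188, 153 had a start usable for counts at gene starts. A single start was used for each gene, so a peak at another of its starts is not counted as at a start. The table is incomplete, so "no located gene" does not mean that no gene is there, and gene names carry that uncertainty. Genes named are MET, CAV1 and CAV2, those at positions in at least 3 lists, those at the 10 highest peaks and, from a list of 40 known genes of the region, those with peaks in at least 2 lists. The 10 highest were taken over all lists, although heights share no common scale. Some genes of that list with no peak are named as such, and WNT2 and KCND2 are named for their place at the upper edge. Others are said to be named after their values were seen. The region's members and the gene list were chosen with earlier results of these data known.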

Additional observations from a re-analysis of the deposited data

How the results depend on the processing

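The region made up a larger share of the resistant list than of the parental list in every alternative that gave a ratio but 1. At a global IDR of 0.05 or less, METTL7A IgG had 0 of 13 resistant and 1 of 53 parental peaks there, a ratio of 0. The wild-type IgG ratio was 7.64 with peaks of height 5 or more. No ratio could be formed at that height for wild-type MYC-tag or METTL7A IgG, or at that IDR for wild-type IgG, wild-type MYC-tag or METTL7A MYC-tag, because the parental list had 0 peaks in the region. The MYC-tag minus IgG difference was 1.06 points with peaks of height 5 or more, and -1.55 to -0.497 points when each pair was left out in turn. METTL7A minus wild-type was -1.41 points with peaks of height 5 or more and -0.153 points in the MYC-tag pairs alone, an alternative added after the data were seen, and 0.120 to 1.17 points when each pair was left out. The height difference was -0.0401 against other peaks of chromosome 7, and 0.0149 to 0.221 when each list was left out. The width difference ran from -15.8 to 26.6 bp when each list was left out, and turned positive without parental wild-type MYC-tag (26.6) and without parental METTL7A MYC-tag (4.67). The antibody and genotype tests, with at most 4 pairs, could not have passed in any setting, so nothing is read from their p-values. The width test with peaks of height 5 or more, over 4 lists, could not have passed either. In the other settings the height and width tests did not pass. The lower limit of the called bins was 94.5 Mb with shifted bins and 90 Mb with 2 Mb bins, and the upper limit 113 Mb at a share of at least 3 times. Bins called in at least 2 pairs fell from 7 to 4 when 5 resistant peaks were asked for. Positions in at least 2 lists fell from 33 to 6 with peaks of height 5 or more, where fewer peaks remain, and to 23 at a reciprocal overlap of 50%. Where no reason is given, the cause was not tested. Joining overlapping peaks of 1 list changed nothing, since no list holds any. No paired analysis was possible because each list joins both replicates and does not say which columns belong to which. Depth is unknown, so an absent peak is one not matched in these libraries.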
